A study of Rattus norvegicus with 6 samples.

Results

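Genes of the TGF-beta and BMP pathway were examined in cultured rat testis cells, labelled as Sertoli cells, from 21-day-old and 9-day-old rats. They were chosen by symbol: the ligands Tgfb1 to Tgfb3, symbols that start with Bmp or Gdf and a digit, with Bmpr, Tgfbr, Smad or Grem, and Id1 to Id4, Nog and Chrd. Of the 14506 genes with a probe set of their own, 42 met this rule, each measured by 1 probe set. They comprised 3 TGF-beta ligands, 16 BMP and GDF ligands, 5 receptors, 3 secreted antagonists, 8 Smads, 4 Id genes and 3 genes taken in by their symbol alone. RefSeq holds 49 protein-coding rat genes under the rule. The other 7, among them the type II receptor Tgfbr2, were not analysed here.

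The series compared 3 arrays of cells from 21-day-old rats with 3 arrays of cells from 9-day-old rats, an age that the labels place in the phase of Sertoli cell proliferation. At both ages decapsulated testes were digested, and the cells were cultured in DMEM/F12 with 10% fetal bovine serum and purified again by a change of medium, so every array shares exposure to serum and to culture. The strain is not stated, and nothing says that the replicates came from separate animals or cultures. The p-values therefore measure only the spread between these arrays, which may be technical. All values are deposited log2 signals of Affymetrix probe sets, which are relative and do not give amounts of transcript.

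Ligands of this family bind pairs of type I and type II serine/threonine kinase receptors, which phosphorylate receptor-regulated Smads. TGF-beta and activin signal mainly through Smad2 and Smad3, and BMPs through Smad1, Smad5 and Smad9. Both groups share Smad4, and Smad6 and Smad7 inhibit. In the testis, Sertoli cells secrete the family members anti-Müllerian hormone and inhibin, and TGF-beta3 is known in the rat as a regulator of the junctions between Sertoli cells that form the blood-testis barrier.

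The array medians lay between 3.78 and 3.87, and arrays correlated across genes at 0.978 to 0.995 within an age and at 0.990 to 0.995 between arrays of the same replicate number. Of 18 Sertoli markers 16 were measured, and 5 of them, Gata1, Amh, Fshr, Cldn11 and Gjb2, lay below the array median in every array. Wt1 lay between 6.95 and 7.44 at 21 days and between 6.94 and 7.04 at 9 days. Clu lay at 9.32 to 10.73 at 21 days and 8.78 to 9.54 at 9 days, and Gata4 at 7.56 to 8.21 and 7.98 to 8.18. All 8 measured markers of peritubular myoid and smooth muscle cells and all 9 of fibroblasts and stroma lay above the array median in at least 1 array, with means over the muscle list of 7.63 to 9.59 at 21 days and 8.37 to 9.91 at 9 days, and over the stromal list of 8.36 to 8.78 at 21 days and 8.63 to 8.69 at 9 days. Signals of stromal and contractile cell markers were thus present beside those of part of the Sertoli list. The share of each cell type was not tested. Most germ cell, macrophage, endothelial and Leydig cell markers lay below the median in every array (6 of 10, 6 of 8, 4 of 6 and 4 of 6), whereas the steroidogenic gene Star lay at 10.84 to 11.28 at 21 days and at 10.84 to 11.16 at 9 days. The germ cell marker Uchl1 and the macrophage marker Cd14 also lay above the upper quartile in every array. Uchl1 lay at 7.68 to 8.43 at 21 days and 8.02 to 8.22 at 9 days, and Cd14 at 7.78 to 8.21 and 7.38 to 8.07.

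No gene of the pathway passed the test between the ages after adjustment. In limma with Benjamini-Hochberg adjustment over all genes, 0 of the 42 genes passed 0.05, as did 0 of all 14506 genes (0% called), and the adjusted p was 1 for each of the 42. At an unadjusted p under 0.05 there was 1 gene, Gdf15, or 2.38%, against 2.97% of all genes. A fit that took the replicate number as a block gave 4, Bmp3, Bmpr2, Gdf15 and Tgfbr1, or 9.52%, against 7.73% of all genes. All 4 were lower at 21 days, as were 4.45% of all genes at this p, and their adjusted p ran from 0.526 to 0.619. The means of 21 genes were higher and those of the other 21 lower at 21 days. Their median difference was -0.0037 on the log2 scale, against -0.0093 over all genes, of which 53.3% were lower. The size of the difference had a median of 0.168 in these genes and 0.0759 in all genes, with a median SE of 0.155 and 0.112. Without both arrays numbered 3, a setting chosen after seeing the data, 5 genes had an unadjusted p under 0.05 (11.9%, against 3.48% of all genes): Bmp8a, Gdf11, Gdf15, Id4 and Tgfbr1. Leaving out single arrays moved the difference by over 1.5 times in 41 of the 42 genes, all but Gdf15. This count was not made over all genes, so it does not set these genes apart. Gdf15 had already been singled out by its p in the same arrays. In bulk RNA, fewer cells of a type and less RNA per cell cannot be told apart.

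**Figure D1:**
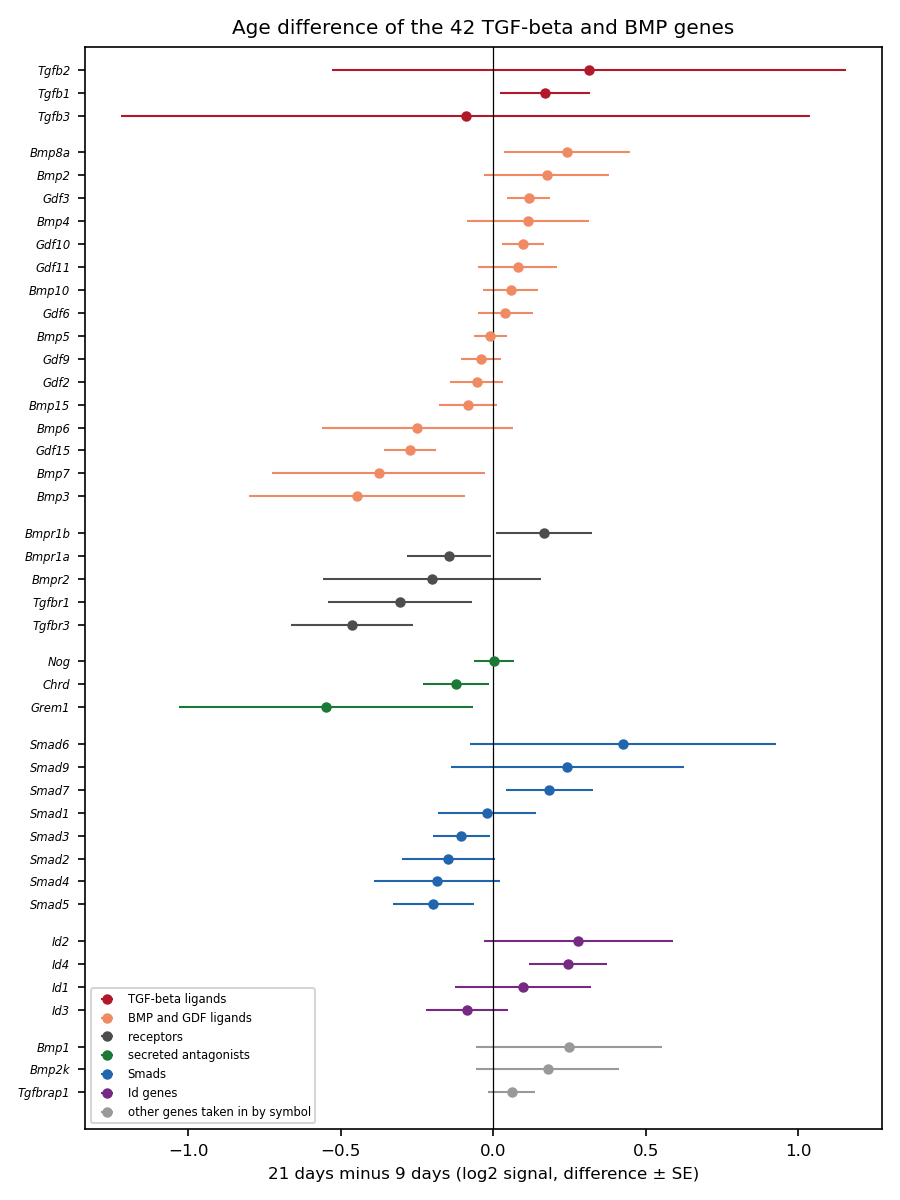
Difference in log2 signal, 21 days minus 9 days, for each of the 42 genes, as limma's estimate (point) with its SE (bar) over 3 arrays per age, grouped by role. The bars of Tgfb2 and Tgfb3 are the longest, with SEs of 0.84 and 1.13, and Gdf15 lies at -0.27 with an SE of 0.08.

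Among the TGF-beta ligands, the 3 isoforms had very unequal spread. Tgfb1, the isoform best known from blood and immune cells, gave 9.32, 9.69 and 9.36 in 21-day replicates 1, 2 and 3, against 9.38, 9.43 and 9.05 in 9-day replicates 1, 2 and 3. The ages overlapped, and the difference was 0.17 ± 0.15 (log2, SE).

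Tgfb2 gave 8.45, 7.30 and 10.29 at 21 days and 7.95, 7.74 and 9.41 at 9 days. Replicate 3 was the highest at both ages, and the age difference of 0.31 ± 0.84 was smaller than its SE. It was -0.49 without 21-day replicate 3.

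Tgfb3 gave 6.52, 5.94 and 9.14 at 21 days, against 6.20, 6.50 and 9.17 at 9 days. The pattern was that of Tgfb2, with replicate 3 far above the others at either age. The age means were 7.20 ± 1.70 and 7.29 ± 1.64 (SD, n = 3 each), for a difference of -0.09 ± 1.13 (log2, SE). Leaving out single arrays moved it between -1.06 without 21-day replicate 3 and 0.85 without 9-day replicate 3.

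The excess of replicate 3 over the mean of replicates 1 and 2 was 2.90 at 21 days and 2.82 at 9 days on the log2 scale for Tgfb3, or 7.48-fold and 7.07-fold. Ranked by the smaller excess of the 2 ages, Tgfb3 stood at place 1 of the 14506 genes and Tgfb2 at place 21. For Tgfb2 the excess was 2.41 at 21 days and 1.56 at 9 days, or 5.32-fold and 2.95-fold. An excess of at least 1 at both ages occurred in 2 of the 42 genes (4.76%) and in 0.483% of all genes. Replicate number accounted for 98.2% of the sum of squares of Tgfb3 over the 6 arrays and age for 0.109%. For Tgfb2 these shares were 90.5% and 2.32%.

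Markers of smooth muscle moved with these ligands. All 8 measured members of that list were highest in replicate 3 at both ages. The list mean was 8.27, 7.63 and 9.59 in 21-day replicates 1, 2 and 3, against 8.37, 8.56 and 9.91 in 9-day replicates 1, 2 and 3, an excess of 1.65 and 1.44 for replicate 3. Of the Sertoli markers 3 of 16 (18.8%) were highest there at both ages, a share near the 18.6% of all genes. Their list means were 4.95, 5.31 and 5.85 at 21 days, against 4.65, 4.81 and 4.76 at 9 days. The excess for replicate 3 was thus 0.73 at 21 days but 0.03 at 9 days. At 21 days it ran from -0.20 in Cldn11 to 2.59 in Tf, so Sertoli markers also tended to be high in that array. The part of either cell type in the values of Tgfb2 and Tgfb3 was not tested.

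**Figure D2:**
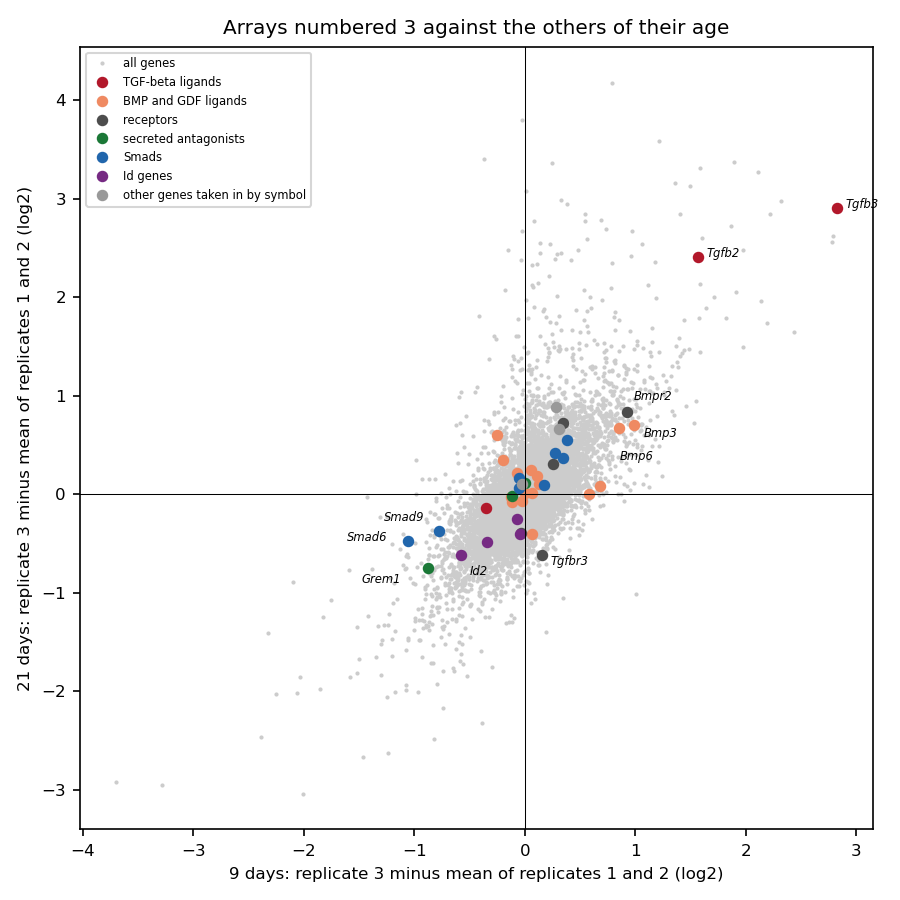
Log2 signal of replicate 3 minus the mean of replicates 1 and 2, at 21 days (vertical axis) and at 9 days (horizontal axis), for the 42 genes by role (coloured) and all 14506 genes (grey). Tgfb3 at 2.90 and 2.82 and Tgfb2 at 2.41 and 1.56 lie at the upper right, and Smad6 at -0.48 and -1.06 lies at the lower left.

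The promoters of these ligands are shown because both genes followed the replicate number rather than age. The windows run from 250 bases before to 50 after the annotated start in RefSeq on GRCr8. Tgfb2 lies on chr13:100792636-100792935 on the minus strand and Tgfb3 on chr6:111456897-111457196 on the minus strand. Capitals would mark the letters CAGAC on either strand, a Smad box bound by Smad3 and Smad4, or GGCGCC, a GC-rich Smad motif.
Tgfb2: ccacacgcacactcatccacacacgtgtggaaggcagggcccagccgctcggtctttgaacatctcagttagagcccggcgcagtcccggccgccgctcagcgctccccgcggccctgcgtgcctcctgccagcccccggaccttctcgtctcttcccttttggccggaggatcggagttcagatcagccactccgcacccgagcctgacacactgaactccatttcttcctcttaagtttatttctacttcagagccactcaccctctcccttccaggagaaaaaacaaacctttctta
Tgfb3: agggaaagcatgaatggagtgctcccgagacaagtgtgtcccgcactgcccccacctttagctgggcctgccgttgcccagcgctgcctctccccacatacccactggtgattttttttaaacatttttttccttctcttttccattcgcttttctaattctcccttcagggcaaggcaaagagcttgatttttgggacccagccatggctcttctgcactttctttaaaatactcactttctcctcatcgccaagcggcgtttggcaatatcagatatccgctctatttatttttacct
Neither window holds these letters, nor GGGCGG (GC box) or TATAAA on either strand. Their GC content was 59% for Tgfb2 and 47.7% for Tgfb3.

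Other genes of the pathway shared the high value in replicate 3 to a smaller extent. In all, 17 of the 42 genes (40.5%) were highest in replicate 3 at both ages, against 18.6% of all genes. Beside Tgfb2 and Tgfb3 these were the ligands Bmp3, Bmp6, Bmp8a, Bmp10, Bmp15 and Gdf2, the receptors Bmpr1a, Bmpr2 and Tgfbr1, the signalling Smads Smad1, Smad2, Smad3 and Smad4, and Bmp1 and Bmp2k. Bmp10, Bmp15 and Gdf2 lay below the array median in every array. Their excess at 21 and 9 days was small, at 0.25 and 0.06, 0.18 and 0.11, and 0.11 and 0.13 (log2). Only 5 were lowest there at both ages (11.9%, against 19% of all genes): the antagonists Grem1 and Nog, the target genes Id1 and Id2, and Gdf6. Of these, Nog and Gdf6 lay below the array median in every array. For Nog, replicate 3 minus the mean of replicates 1 and 2 was -0.015 at 21 days and -0.12 at 9 days (log2). For Gdf6 it was -0.079 and -0.12. In 30 of the 42 genes (71.4%) the mean square between replicate numbers was above that between ages, against 66.7% of all genes. The numbers took a median of 57.9% of the sum of squares of these genes and the ages 15.5%, against 51.7% and 10.9% over all genes. The shares over all genes were not matched to the 42 for signal level or for equal values between arrays.

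Of the 16 BMP and GDF ligands, 10 lay below the array median in every array: Bmp2, Bmp4, Bmp5, Bmp10, Bmp15, Gdf2, Gdf3, Gdf6, Gdf9 and Gdf10. Bmp5, Bmp15 and Gdf3 also lay below the lower quartile of every array. The age differences of these 10 ran from -0.08 for Bmp15 to 0.17 for Bmp2, and no limit of detection is known for signals this low. Bmp6 was the only ligand of this group above the upper quartile in every array. It gave 8.72, 8.45 and 9.25 at 21 days and 8.70, 8.84 and 9.63 at 9 days, with a difference of -0.25 ± 0.31 (log2, SE). The ages overlapped, and replicate 3 was again highest at both.

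Gdf15, a stress-induced member of the family, was the only 1 of the 42 genes whose ages did not overlap (2.38%, against 5.72% of all genes). It gave 3.47, 3.52 and 3.72 in 21-day replicates 1, 2 and 3, against 3.87, 3.87 and 3.79 in 9-day replicates 1, 2 and 3. All 21-day arrays were low and all 9-day arrays high, and the nearest arrays were replicates 3 of both ages. The signal was near the array medians, and lay below the median in each 21-day array and in 9-day replicate 3. The means were 3.57 ± 0.13 and 3.84 ± 0.04 (SD, n = 3 each), a difference of -0.27 ± 0.08 (log2, SE) or a fold of 0.828. Its unadjusted limma p was 0.0186 and its adjusted p 1. Without both arrays numbered 3 the ages did not overlap in 10 of the 42 genes (23.8%, against 24.5% of all genes).

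Bmp3, a BMP relative known chiefly for opposing other BMPs, had the largest difference among the BMP and GDF ligands. It gave 3.24, 3.27 and 3.96 at 21 days, against 3.82, 3.39 and 4.60 at 9 days. The ages overlapped, although the 21-day array was the lower one at each replicate number, by 0.58, 0.11 and 0.64. The difference was -0.45 ± 0.35 (log2, SE), and it was -0.72 without 9-day replicate 2 and -0.12 without 9-day replicate 3. In limma, with the replicate block, its unadjusted p was 0.0172 and its adjusted p 0.526. Bmp7 was also lower at each number, with a difference of -0.38 ± 0.35 (log2, SE), which ran from -0.62 without 9-day replicate 1 to -0.065 without 9-day replicate 2. Of the remaining ligands, Bmp8a differed by 0.24 ± 0.21 and Gdf11 by 0.08 ± 0.13 (log2, SE).

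Of the 5 receptors, 4 had lower means at 21 days, and each of these 4 was lower at all 3 replicate numbers. A lower value at every number occurred in 11 of the 42 genes (26.2%), against 14.4% of all genes. The receptors were Tgfbr3, Tgfbr1, Bmpr2 and Bmpr1a, and the others were Bmp3, Bmp7, Bmp15, Gdf15, Grem1, Smad2 and Smad4. A higher value at every number occurred in 2 genes (4.76%, against 10.7% of all genes), Gdf3 and Id4. None of these passed after adjustment. Marker lists also had a direction: the means of all 8 smooth muscle markers (median difference -0.45) and of 7 of 9 stromal markers (-0.15) were lower at 21 days, and those of 13 of 16 Sertoli markers (median 0.27) were higher, with 0 past the adjusted test. Their part in the receptor values was not tested.

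Tgfbr3, or betaglycan, a co-receptor that presents TGF-beta2 and binds inhibin, had the largest receptor difference. It gave 6.89, 7.00 and 6.32 at 21 days, against 6.99, 7.30 and 7.30 at 9 days. The 21-day replicate 3 was the lowest array, and 21-day replicate 2 slightly exceeded 9-day replicate 1. The difference was -0.46 ± 0.20 (log2, SE) with an unadjusted limma p of 0.0621, and it was -0.25 without 21-day replicate 3.

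Tgfbr1, the type I receptor for TGF-beta, gave 5.71, 5.58 and 6.37 at 21 days and 6.20, 5.96 and 6.42 at 9 days. Only 21-day replicate 3 reached the 9-day range. The difference was -0.31 ± 0.24 (log2, SE), with -0.55 without 21-day replicate 3 and -0.15 without 21-day replicate 2, and the unadjusted p with the replicate block was 0.0363 in limma (adjusted p 0.619).

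Bmpr2, the type II receptor for BMPs, gave 8.30, 8.04 and 9.00 at 21 days, against 8.46, 8.22 and 9.27 at 9 days. The spread across replicate numbers was far wider than the steps of -0.16, -0.18 and -0.26 between the ages at numbers 1, 2 and 3. The difference was -0.20 ± 0.36 (log2, SE), and the block gave an unadjusted limma p of 0.0347 and an adjusted p of 0.616.

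The differences of the BMP type I receptors had opposite signs, neither beyond the spread of the arrays. Bmpr1a gave 7.69, 7.44 and 7.87 at 21 days and 7.78, 7.67 and 7.98 at 9 days, a difference of -0.14 ± 0.14 (log2, SE). Bmpr1b gave 6.31, 6.37 and 5.95 at 21 days and 5.85, 6.26 and 6.02 at 9 days, a difference of 0.17 ± 0.16 (log2, SE). The ages overlapped for both genes.

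**Figure D3:**
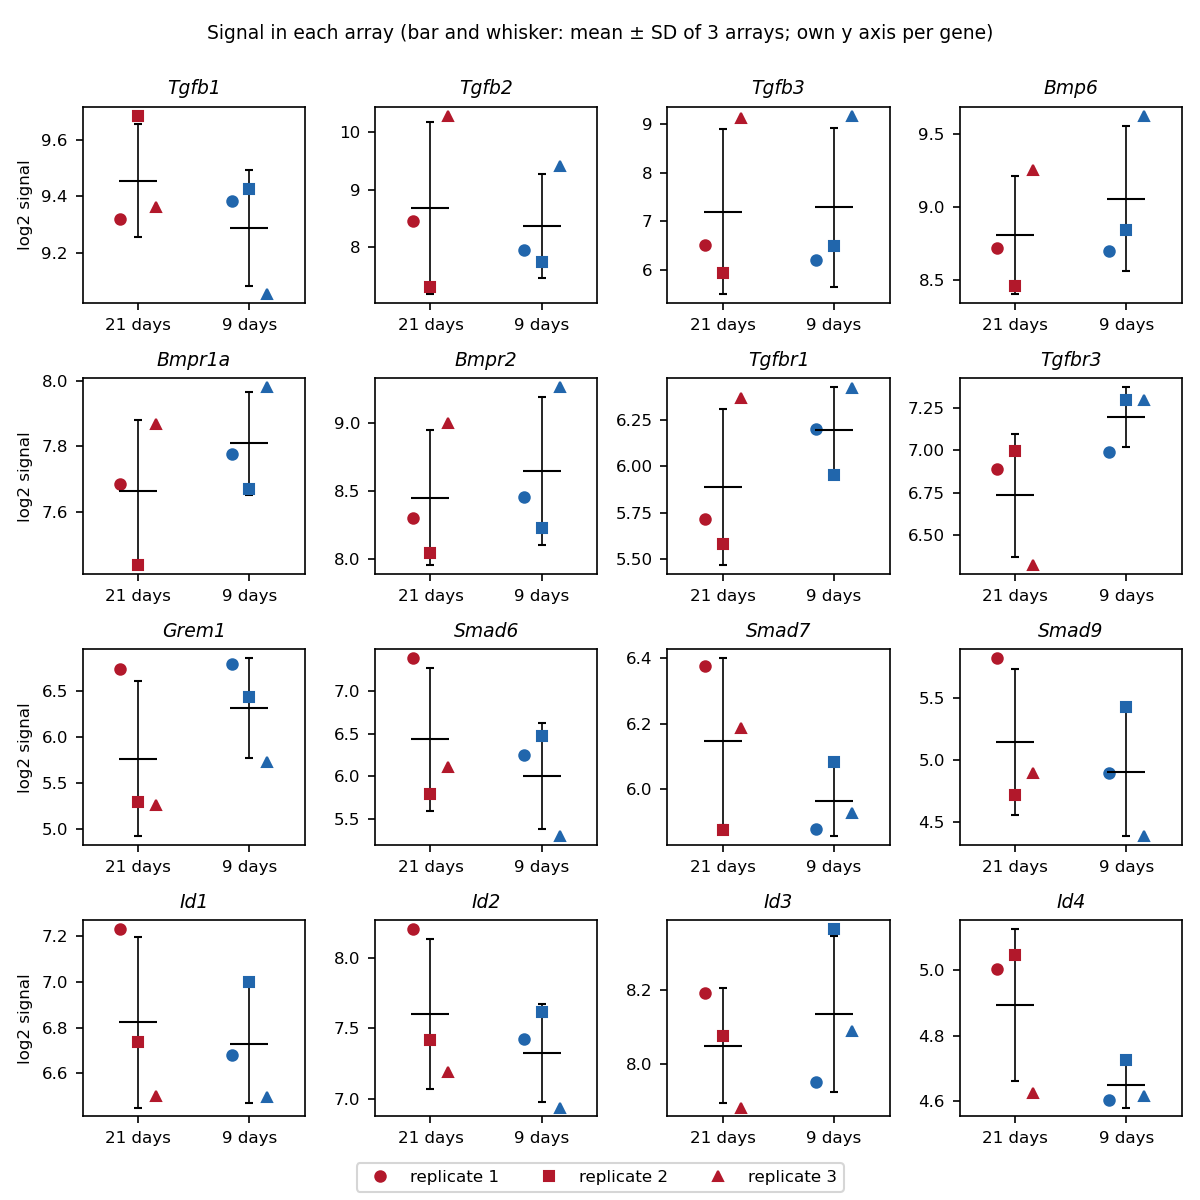
Log2 signal of 16 genes in each of the 3 arrays at 21 days (red, left) and the 3 arrays at 9 days (blue, right), with the shape of the point giving the replicate number and the bar and whisker the mean ± SD. Replicate 3 is highest at both ages for Tgfb2, Tgfb3, Bmp6, Bmpr1a, Bmpr2 and Tgfbr1, while 21-day replicate 1 and 9-day replicate 2 are the highest of their age for Smad6, Smad7, Smad9, Id1, Id2 and Id3.

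Among the secreted antagonists, Grem1, which binds and blocks BMPs, had the largest difference of all 42 genes. It gave 6.74, 5.29 and 5.27 in 21-day replicates 1, 2 and 3, against 6.79, 6.43 and 5.73 in 9-day replicates 1, 2 and 3. Replicate 1 at 21 days lay among the 9-day arrays, while the other 21-day arrays were below all of them. The means were 5.77 ± 0.84 and 6.31 ± 0.54 (SD, n = 3 each), a difference of -0.55 ± 0.48 (log2, SE). It was -1.03 without 21-day replicate 1 and -0.30 without 21-day replicate 3. Chrd, another BMP-binding protein, differed by -0.12 ± 0.11 (log2, SE), and Nog, which lay below the array median in every array, by 0.0026 ± 0.064.

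None of the receptor-regulated and common Smads passed the test. Smad1, Smad2, Smad3, Smad4 and Smad5 differed by -0.02, -0.15, -0.10, -0.18 and -0.20 on the log2 scale, with SEs of 0.094 to 0.206. Smad2 and Smad4 were lower at every replicate number, by at most 0.29 and 0.45.

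The inhibitory Smads and Smad9 had a different order of arrays. Smad6, which chiefly inhibits BMP signalling and is itself induced by BMPs, gave 7.38, 5.80 and 6.11 at 21 days and 6.25, 6.47 and 5.30 at 9 days. Replicate 1 was the highest at 21 days and replicate 2 at 9 days, and the ages overlapped. The difference was 0.43 ± 0.50 (log2, SE), and -0.05 without 21-day replicate 1.

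Smad9, a BMP-regulated Smad, gave 5.82, 4.71 and 4.89 at 21 days and 4.89, 5.42 and 4.38 at 9 days. Smad7, an inhibitor of both branches, gave 6.38, 5.87 and 6.19 at 21 days, against 5.88, 6.08 and 5.93 at 9 days. The high arrays of Smad9 and Smad7 were those of Smad6. Their differences were 0.24 ± 0.38 and 0.18 ± 0.14 (log2, SE).

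The Id genes encode helix-loop-helix proteins that lack a DNA-binding region, and Id1 to Id3 are widely used as readouts of BMP signalling. Id1 gave 7.23, 6.74 and 6.50 at 21 days and 6.68, 7.00 and 6.50 at 9 days. Id2 gave 8.20, 7.42 and 7.19 at 21 days and 7.42, 7.62 and 6.94 at 9 days. Replicate 1 was again the highest array at 21 days and replicate 2 at 9 days, for both genes.

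Id3 gave 8.19, 8.07 and 7.88 at 21 days, against 7.95, 8.36 and 8.09 at 9 days. The differences of Id1, Id2 and Id3 were 0.10 ± 0.22, 0.28 ± 0.31 and -0.09 ± 0.14 (log2, SE), each with overlapping ages. Without 21-day replicate 1 those of Id1 and Id2 were -0.11 and -0.02. Id4, which in the mouse also marks spermatogonial stem cells, gave 5.01, 5.05 and 4.63 at 21 days and 4.60, 4.73 and 4.62 at 9 days. Replicates 1 and 2 at 21 days were above all other arrays, and the difference was 0.25 ± 0.13 (log2, SE) with an unadjusted limma p of 0.104.

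The order shared by Id1, Id2, Id3, Smad6, Smad7 and Smad9, with 21-day replicate 1 and 9-day replicate 2 each highest of their age, was noticed after the values were seen and was not tested. It occurred in 7 of the 42 genes (16.7%), against 7.6% of all genes, and the other was Smad5. Atoh8, a BMP-induced transcription factor outside the rule, was also picked after its values were seen. It gave 6.26, 5.61 and 5.21 at 21 days and 5.48, 5.83 and 5.28 at 9 days, with the same high arrays. Of the other measured genes in the list of target genes given below, Cdkn1a alone had these high arrays. Msx1, Msx2, Dlx5 and Hey1 did not, and all of these but Msx2 lay below the array median in every array. Ccn1 and Ccn2, matricellular genes induced by TGF-beta and by mechanical tension, did not share this order. Ccn2 gave 9.32, 9.21 and 10.46 at 21 days and 9.24, 9.62 and 10.56 at 9 days, highest in replicate 3. Ccn1 gave 10.19, 10.32 and 10.96 at 21 days and 10.09, 10.46 and 11.04 at 9 days, also highest in replicate 3.

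**Figure D4:**
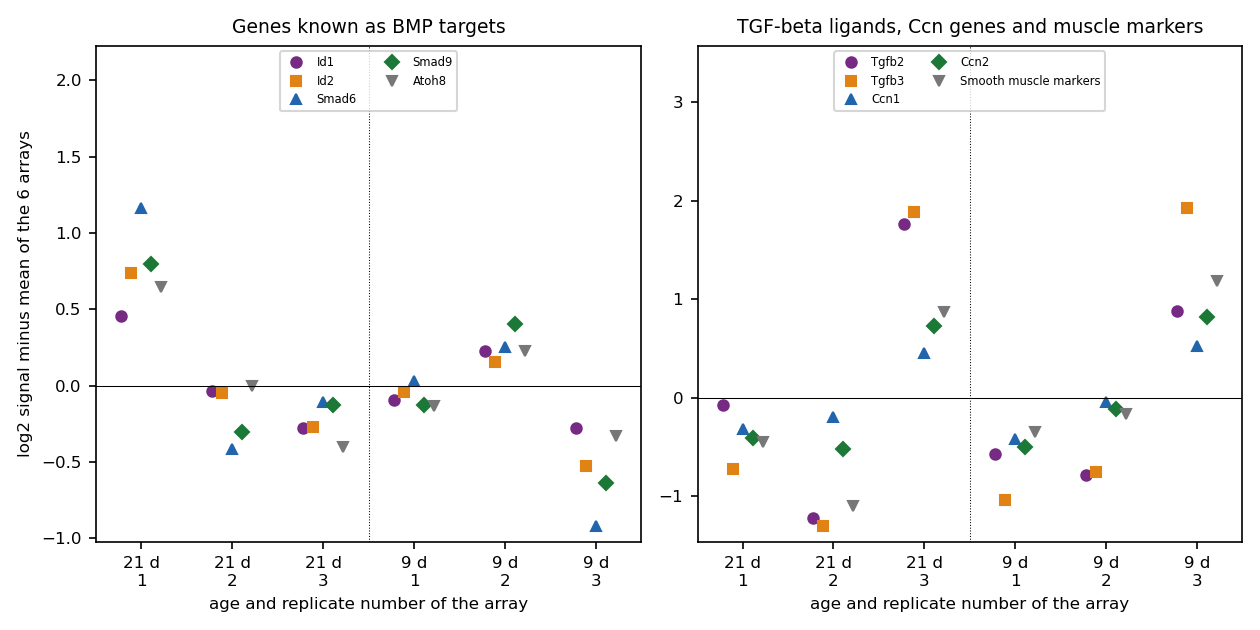
Log2 signal minus the gene's mean over the 6 arrays, in 21-day replicates 1 to 3 and then 9-day replicates 1 to 3, for Id1, Id2, Smad6, Smad9 and Atoh8 (left) and for Tgfb2, Tgfb3, Ccn1, Ccn2 and the mean of the 8 smooth muscle markers (right). Smad6 reaches 1.16 in 21-day replicate 1, and Tgfb3 reaches 1.89 and 1.93 in replicate 3 at 21 and 9 days.

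Promoters of Id1, Id2 and Smad9 are shown as those of BMP target genes that shared an order of arrays. The windows, again from RefSeq on GRCr8, are chr3:161671314-161671613 on the plus strand for Id1, chr6:47470946-47471245 on the minus strand for Id2 and chr2:141106418-141106717 on the plus strand for Smad9. Capitals mark CAGAC or its reverse complement GTCTG, and GGCGCC.
Id1: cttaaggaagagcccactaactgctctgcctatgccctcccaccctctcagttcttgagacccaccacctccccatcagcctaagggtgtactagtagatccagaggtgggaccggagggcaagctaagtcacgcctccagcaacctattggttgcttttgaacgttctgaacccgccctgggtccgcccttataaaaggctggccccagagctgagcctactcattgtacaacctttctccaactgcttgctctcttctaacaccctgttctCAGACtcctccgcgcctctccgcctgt
Id2: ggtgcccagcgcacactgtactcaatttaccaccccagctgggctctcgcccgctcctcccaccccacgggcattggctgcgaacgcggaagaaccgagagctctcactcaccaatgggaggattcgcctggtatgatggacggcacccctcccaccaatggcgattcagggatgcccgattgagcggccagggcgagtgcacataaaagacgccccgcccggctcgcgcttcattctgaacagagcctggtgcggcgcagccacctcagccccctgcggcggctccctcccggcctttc
Smad9: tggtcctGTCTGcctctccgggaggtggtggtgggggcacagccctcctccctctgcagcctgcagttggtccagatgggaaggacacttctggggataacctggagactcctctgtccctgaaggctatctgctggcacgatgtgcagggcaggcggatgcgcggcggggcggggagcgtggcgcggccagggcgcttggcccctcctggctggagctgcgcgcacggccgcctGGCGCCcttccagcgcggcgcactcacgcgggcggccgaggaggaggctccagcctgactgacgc
Id1 holds CAGAC 1 time, Smad9 holds GTCTG 1 time and GGCGCC 1 time, and Id2 holds none of these. A promoter was at hand for 35 of the 42 genes, and none for Bmp1, Bmp2, Bmp7, Bmpr1b, Gdf3, Gdf6 and Smad6. CAGAC on either strand occurred in 14 of the 35 (40%), against 50.1% of all 33469 rat promoters of this length in the table. GGCGCC occurred in 13 (37.1%, against 11%), GGGCGG on either strand in 23 (65.7%, against 33.1%), and TATAAA on either strand in 6 (17.1%, against 14.2%). The 35 were counted by gene and the background by promoter entry. These shares were not matched for GC content or class of gene, and a match of letters does not show that a factor binds.

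The 3 genes taken in by their symbol alone are not ligands or receptors. Bmp1, a metalloprotease that trims procollagens and cleaves chordin, gave 6.72, 7.27 and 7.88 at 21 days and 6.78, 7.12 and 7.23 at 9 days. Replicate 3 at 21 days stood highest, the other arrays overlapped, and the difference was 0.25 ± 0.30 (log2, SE). Bmp2k, a kinase named for its induction by BMP2, and Tgfbrap1, a receptor-associated protein, differed by 0.18 ± 0.23 and 0.06 ± 0.08 (log2, SE).

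Other genes of the pathway were taken from 7 lists by role. Of 90 listed genes 78 were measured, and 37 of these had a higher and 41 a lower mean at 21 days. Their median difference was -0.0043. None passed after adjustment (0% of all genes did), and 3 had an unadjusted limma p under 0.05, against 2.97% of all genes: Snai1, Ltbp3 and Tgif1. The ages did not overlap in 3, Snai1, Ltbp3 and Amh, against 5.72% of all genes. Replicate 3 was highest at both ages in 31 of the 78 (39.7%, against 18.6% of all genes) and lowest in 12 (15.4%, against 19%).

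The other ligands split into 7 higher and 4 lower of 11. Inha, the inhibin alpha subunit and a Sertoli cell product, gave 4.11, 5.43 and 6.58 at 21 days and 3.86, 4.62 and 4.55 at 9 days, a difference of 1.03 ± 0.63 (log2, SE). The 21-day array was higher at every replicate number, but 21-day replicate 1 lay among the 9-day arrays. The difference was 0.43 without 21-day replicate 3 and 1.66 without 21-day replicate 1. Amh, which encodes anti-Müllerian hormone, lay below the array median in every array and differed by 0.21 ± 0.09 (log2, SE). Of 7 further receptors 3 were higher and 4 lower, with the largest differences in Amhr2, the AMH receptor, at 0.18 ± 0.10 and Acvrl1, an endothelial type I receptor, at -0.15 ± 0.14 (log2, SE). Of 4 co-receptors 2 were higher and 2 lower, and Rgma and Eng differed most, by 0.32 ± 0.19 and -0.18 ± 0.15 (log2, SE).

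Genes of the latency and activation of TGF-beta were higher in 4 and lower in 7 of 11. Ltbp4, a latent TGF-beta binding protein, gave 3.93, 4.53 and 4.98 at 21 days, against 4.56, 5.68 and 6.25 at 9 days. The ages overlapped, but the 21-day array was lower at every number, and the difference was -1.01 ± 0.49 (log2, SE). Its unadjusted limma p was 0.0831, and with the replicate block 0.000942 with an adjusted p of 0.36. Ltbp3 gave 6.30, 6.53 and 6.02 at 21 days and 6.75, 6.69 and 6.72 at 9 days. All 21-day arrays were below all 9-day arrays, with a difference of -0.44 ± 0.13 (log2, SE) and an unadjusted limma p of 0.0181. Ltbp2 differed by -0.50 ± 0.34 (log2, SE), and by -0.14 without 21-day replicate 2. The difference of Ltbp4 was -0.64 without 9-day replicate 3.

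Of 12 further extracellular antagonists and modulators 5 were higher and 7 lower. Chrdl1, a chordin-like BMP binder, and Tll1, a protease related to Bmp1, differed most, by 0.35 ± 0.15 and -0.25 ± 0.32 (log2, SE), and Tll1 turned to 0.09 without 9-day replicate 3. Of 14 intracellular regulators 6 were higher and 8 lower. Tgif1, a Smad corepressor, differed by 0.26 ± 0.10 with an unadjusted limma p of 0.0456, and Smurf2, a ubiquitin ligase for Smads and receptors, by -0.17 ± 0.21 (log2, SE), which turned to 0.05 without 21-day replicate 2.

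Of 19 target genes 10 were higher and 9 lower, and 11 (57.9%, against 18.6% of all genes) were highest in replicate 3 at both ages. Snai1, a transcription factor induced by TGF-beta, gave 7.51, 7.69 and 7.51 at 21 days and 6.97, 7.33 and 7.11 at 9 days. All 21-day arrays were above all 9-day arrays, and the difference was 0.43 ± 0.12 (log2, SE) with an unadjusted limma p of 0.0101. Tgfbi, a matrix protein induced by TGF-beta, differed by 0.79 ± 0.39 (log2, SE), and the ages overlapped. Its difference was 0.57 without 21-day replicate 2 and 1.22 without 21-day replicate 1. The target list shares Acta2, Tagln and Col1a1 with the marker lists of smooth muscle and stroma.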

How the data were processed

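The deposited values are log2 signals. Per the submitters' processing notes, the authors used RMA, a method of background correction, quantile normalization and summary by probe set, whose version and options the sources used here do not name. Background signals, detection calls and scan dates were not used here, so limits of detection and batches could not be examined, and the number of arrays limits the precision.

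Of 29214 probe sets, the platform annotation gives 1 gene for 15310, several for 323 and none for 13581. Where a gene had several probe sets (527 genes), that with the highest mean was kept, which left 14506 genes. Entrez numbers matched 15279 of the single-gene probe sets to RefSeq on GRCr8, and 0 symbols changed.

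Ages were compared as 21 days minus 9 days in limma 3.58.1 with R 4.3.3 (lmFit, eBayes), without covariates or filter, and p-values were adjusted over all genes by the Benjamini-Hochberg method at 0.05. The step was tested on simulated data. Deviations of same-numbered arrays from their age means correlated at 0.439, 0.549 and 0.673 for numbers 1, 2 and 3, so the numbers, which come from the titles, were taken to pair the arrays in an alternative fit. What a number stands for is not stated.

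The genes, lists and rules were chosen with earlier results of these data known. Every gene under the rule is named. Values per array are given for genes without overlap between the ages or at an unadjusted p under 0.05, with a difference of at least 0.5 or the largest in their role, for Tgfb1 to Tgfb3, the Id genes and the receptors. Of each pathway list the 2 largest differences are named. Bmp6, Smad7, Smad9, Atoh8, Ccn1, Ccn2, Star, Wt1 and Ltbp3 were added after their values were seen. So were Clu, Gata4, Tf, Cldn11, Uchl1, Cd14, Cdkn1a, Msx1, Msx2, Dlx5, Hey1 and Pcsk6. Alternatives changed the scaling, the filter on mean signal, the probe set rule, the variance model, the array weights, the block or the arrays left out. Promoters were searched and figures drawn in Python 3.11.15 with matplotlib 3.10.9.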

Additional observations from a re-analysis of the deposited data

How the results depend on the processing

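Under 16 other settings, of which 2, leaving out both arrays numbered 3 with and without the block, were chosen after seeing the data, 0 of the 42 genes passed an adjusted p of 0.05. Of 650 recomputed differences 615 kept their direction, and 26 genes never turned. The cause of the turns was not tested. The replicate block, which pairs arrays by number, gave 4 genes at an unadjusted p under 0.05 in place of 1, and 1122 in place of 431 of all genes. It changed no call at the adjusted p. Of the other pathway genes, Amh, Inha, Ltbp4, Pcsk6 and Tgfbi had an unadjusted limma p under 0.05 only with the block. Among the 42 genes, the count at an unadjusted p under 0.05 was 0 in the upper 50% of mean signal, where Gdf15 was not tested, and 2 with array weights. It was 0 to 4 with 1 array left out (4, or 9.52%, against 4.33% of all genes, without 21-day replicate 3). Without both arrays numbered 3 it was 5 (11.9%), with or without the block: Bmp8a, Gdf11, Gdf15, Id4 and Tgfbr1. The share of all genes was 3.48% without the block and was not counted with it. The count without overlap between the ages was 0 in the upper 50%, 2 after subtraction of array medians, 3 to 8 with 1 array left out (8, or 19.0%, against 16.4% of all genes, without 21-day replicate 3) and 10 (23.8%, against 24.5% of all genes) without both arrays numbered 3. With fewer arrays an overlap is less likely by construction.

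The difference of Nog was -0.023 after subtraction of array medians, -0.031 after another quantile normalization, -0.0077 with array weights and -0.031 without both arrays numbered 3. Smad1 turned to 0.018 after another quantile normalization and 0.0024 with array weights. Without both arrays numbered 3, Bmp10 and Bmp2 turned to -0.0049 and -0.11. Leaving out single arrays turned 16 genes, over these ranges: Tgfb2 -0.49 to 1.00, Tgfb3 -1.06 to 0.85, Bmp1 -0.046 to 0.53, Bmp2 -0.025 to 0.36, Bmp2k -0.044 to 0.38, Bmp6 -0.47 to 0.036, Bmp10 -0.025 to 0.10, Bmpr2 -0.48 to 0.11, Gdf6 -0.0046 to 0.12, Id1 -0.11 to 0.26, Id2 -0.021 to 0.49, Id3 -0.18 to 0.028, Nog -0.036 to 0.038, Smad1 -0.14 to 0.10, Smad6 -0.049 to 0.74 and Smad9 -0.095 to 0.50. The signals near or below the array medians limit what can be seen of most BMP and GDF ligands.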

Other observations

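Some probe sets held the same deposited value in several arrays. Bmp5 had 1 value in 5 of the 6 arrays, and 7 of the 42 genes (16.7%) shared a value between at least 2 arrays, against 37.8% of all genes. Equal values counted as neither higher nor lower in the patterns above. The comparisons with all genes, also those of sizes and of directions at every number, were not matched for this or for signal level.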
